A study of Homo sapiens with 6 samples.

Results

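The genes described here encode the proteins that join and divide mitochondria. They are the 10 genes MFN1, MFN2, OPA1, DNM1L, FIS1, MFF, MIEF1, MIEF2, OMA1 and YME1L1, chosen by name and matched by symbol to 10 of the 60604 genes in the count table. RNA was sequenced from MIA PaCa-2 cells, a widely used line from a human pancreatic carcinoma, labelled as wild type. In 3 libraries the cells had received black phosphorus (BP) at 12.5 µg/ml with Huaier, a traditional preparation made from a bracket fungus, at 10 mg/ml, and in the other 3 they had received BP at 12.5 µg/ml without Huaier. Both groups carried BP, so the comparison is of Huaier on top of BP, a combination the study set out to relate to mitophagy and autophagy. The sources used here do not give the treatment time, nor whether replicates were grown apart, so p-values reflect the variation among these 6 libraries, which may be technical.

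Mitochondria form a network that is remodelled by fusion and fission. Outer membranes are joined by the mitofusins MFN1 and MFN2 and inner membranes by OPA1, a dynamin-related GTPase that is cut into long and short forms by the proteases OMA1 and YME1L1. Division is carried out by DNM1L, a cytosolic GTPase also known as DRP1, which is recruited to the outer membrane by the receptors MFF, MIEF1 and MIEF2, with FIS1 as a further outer-membrane adaptor. In pancreatic carcinoma cells with active RAS signalling, DNM1L is known to be activated by ERK phosphorylation, and much of the control of OPA1 lies in its cleavage. Neither is seen in transcript counts.

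Libraries held 15808056 to 16856727 counts on genes in BP+Huaier and 15657593 to 17036565 in BP. BP+Huaier 3 stood apart. On the leading principal component of log2 CPM, with 72.4% of the variance, its score of -11.5 fell between the scores of BP+Huaier 1 and 2 (-65.1 and -66.0) and those of BP (43.4 to 50.5). Of the markers of the line, KRT8, KRT18, KRT19, SOX9 and VIM were expressed, whereas KRT7, EPCAM and CDH1 had at most 5 counts in any library. The fibroblast markers DCN and LUM and the leukocyte markers PTPRC and CD3E were at 0 counts in all 6 libraries. The summed marker levels lay at 386 to 489 CPM in BP+Huaier and 502 to 558 CPM in BP for 7 fibroblast genes, at 21.0 to 34.2 CPM in BP+Huaier and 40.8 to 45.6 CPM in BP for 6 leukocyte genes, and at 12.1 to 14.7 CPM in BP+Huaier and 17.6 to 21.1 CPM in BP for 4 endothelial genes. COL1A2, CD14 and CDH5 made up most of these sums. The sum of 8 markers of epithelium or of the line lay at 4786 to 6887 CPM in BP+Huaier and 5157 to 5327 CPM in BP. Single markers went both ways, COL1A1 being called higher 4.40-fold, KRT18 1.71-fold and KRT19 2.05-fold, and CDH5 lower 1.49-fold (edgeR adjusted p = 8.9e-04, 0.037, 0.017 and 0.030). The part of these markers in the results was not tested. All 37 genes of the mitochondrial genome were listed at 0 counts in every library, so the amount of mitochondrial RNA was not measured.

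With Huaier added to BP, the fusion GTPase MFN1 and the protease OMA1 were called lower, and no gene of the 10 was called higher. MFN1 fell 1.81-fold and OMA1 1.92-fold, both in 3 of 3 BP+Huaier libraries against every BP library. The remaining 8 genes did not pass the test, among them OPA1, DNM1L and all 4 outer-membrane adaptors of fission. All 10 genes were tested (edgeR quasi-likelihood test, Benjamini-Hochberg adjusted p under 0.05 over 15022 genes). The 2 falls are 20.0% of the genes, against 29.3% of all tested genes called in either direction, 15% called lower and 14.4% called higher, so the share called is not above the background. At an unadjusted p under 0.05 there were 3 genes, all lower, and DESeq2 and limma-voom likewise called 0 higher, against 18.4% and 14.1% of all tested genes. For the unadjusted p the background is 43.3% of all genes. At an adjusted p under 0.01 none of the 10 was called by edgeR, against 10.9% of all genes. The median log2 fold change was -0.13 over the 10 genes and -0.02 over all tested genes. With a trend on GC content and on length removed, these medians were -0.009 and 0.001. With library size alone as the scale they were -0.39 and -0.28. CPM values below are counts relative to library size, scaled by TMM, which takes the scale from most genes, and errors are SD over 3 libraries unless SE is named. In bulk RNA, fewer cells expressing a gene and less of its RNA per cell cannot be told apart.

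**Figure D1:**
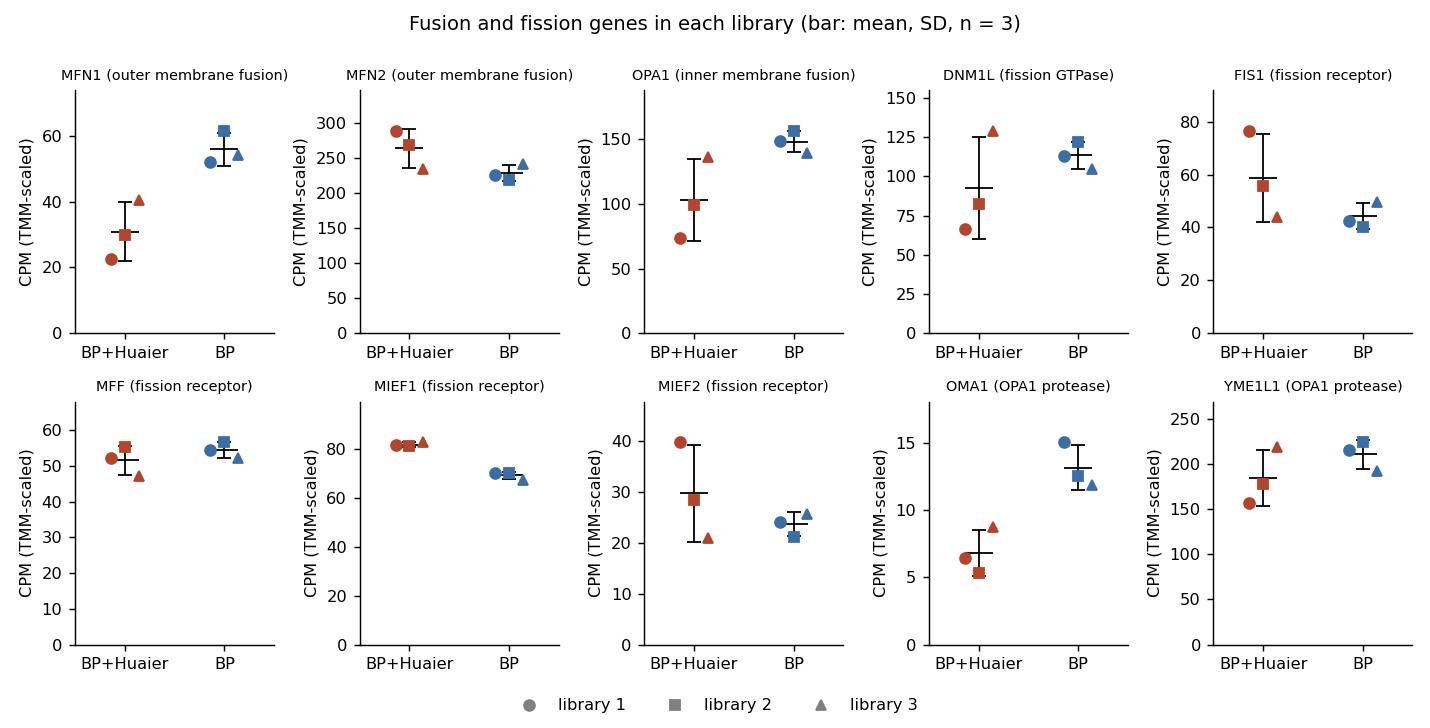
Level of each fusion and fission gene in every library, in TMM-scaled CPM, with BP+Huaier on the left and BP on the right of each panel; points are libraries, and bars give the mean and SD of 3. All 3 BP+Huaier points lie below the BP points for MFN1, OPA1 and OMA1 and above them for MIEF1, and in most panels the triangle of BP+Huaier 3 lies nearest to the BP points.

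Among the fusion genes, MFN1 (ENSG00000171109.19, GRCh38 chromosome 3, 179347709 to 179394936), a GTPase that tethers and joins outer membranes, was at 22.5, 29.8 and 40.3 CPM in BP+Huaier 1, 2 and 3, against 52.0, 61.5 and 54.3 CPM in BP 1, 2 and 3. The groups did not overlap, and the highest BP+Huaier value was that of library 3. The means were 30.9 ± 8.97 CPM in BP+Huaier and 55.9 ± 4.96 CPM in BP, which on the log2 scale differ by -0.85 ± 0.21 (SE; adjusted p = 0.017 by edgeR). Without BP+Huaier 3 the fall was 2.12-fold (edgeR adjusted p = 1.6e-05). MFN1 was no longer called without BP+Huaier 2 (edgeR adjusted p = 0.074) or without BP 1, 2 or 3 (0.051, 0.080 and 0.056), and was still called without BP+Huaier 1. In these fits with 1 library left out, 12.6% of all genes were called without BP+Huaier 2, 11.2%, 11.6% and 13.4% without BP 1, 2 and 3, and 23.2% without BP+Huaier 1. The fit without BP+Huaier 3 called 59.8% of all genes.

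MFN2 (ENSG00000116688.18, chromosome 1, 11980181 to 12015211), the second mitofusin, which also links mitochondria to the endoplasmic reticulum, was at 288, 268 and 234 CPM in BP+Huaier, against 225, 219 and 241 CPM in BP. BP+Huaier 1 and 2 lay above every BP library and BP+Huaier 3 among them. Its log2 fold change was 0.21 with a 95% interval of -0.10 to 0.52 (edgeR adjusted p = 0.27), and it was -0.066 when libraries were scaled by their size alone. Without BP+Huaier 3, MFN2 was called higher, by 1.23-fold (edgeR adjusted p = 0.012). That fit called 59.8% of all genes, and no other fit with 1 library left out called MFN2.

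The ratio of both mitofusins within a library does not depend on how libraries are scaled. Per kilobase of exon, the log2 ratio of MFN1 to MFN2 was -2.90, -2.38 and -1.75 in BP+Huaier, against -1.33, -1.05 and -1.37 in BP. Every BP+Huaier library lay below every BP library, with means of -2.34 ± 0.57 in BP+Huaier and -1.25 ± 0.18 in BP, a 2.14-fold lower ratio. An exact two-sided permutation test gave p = 0.10 (0.15 adjusted over 3 ratios), the smallest that 3 libraries against 3 allow, so the design could not reach 0.05. The longest transcripts have 39.9% GC in MFN1 and 53.6% in MFN2, so the ratio is not free of a GC trend within a library. With a trend on GC content and on length removed, the log2 fold changes were -0.65 for MFN1 and 0.07 for MFN2. The part of GC content in the ratio was not tested.

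Promoter windows are shown for both mitofusins, which differ in their values, and for OMA1, the other gene that fell. Each runs from 250 bases before to 50 bases after the RefSeq start on GRCh38.p14, in the direction of transcription. They are chr3:179347459-179347758 on the plus strand for MFN1, chr1:11980194-11980493 on the plus strand for MFN2 and chr1:58546677-58546976 on the minus strand for OMA1. Capitals mark matches on either strand to CCAAT, to CCGGAA (the core bound by ETS factors), to TGACG (the core of the cAMP response element) and to GCGCA and GCGC with any base N between them (bound by NRF1).
MFN1: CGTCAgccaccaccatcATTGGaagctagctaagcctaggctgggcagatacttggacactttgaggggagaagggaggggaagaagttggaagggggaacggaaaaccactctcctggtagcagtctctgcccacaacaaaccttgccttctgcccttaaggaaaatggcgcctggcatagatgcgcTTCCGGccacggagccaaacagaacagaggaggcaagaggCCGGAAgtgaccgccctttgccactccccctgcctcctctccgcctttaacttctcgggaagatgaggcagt
MFN2: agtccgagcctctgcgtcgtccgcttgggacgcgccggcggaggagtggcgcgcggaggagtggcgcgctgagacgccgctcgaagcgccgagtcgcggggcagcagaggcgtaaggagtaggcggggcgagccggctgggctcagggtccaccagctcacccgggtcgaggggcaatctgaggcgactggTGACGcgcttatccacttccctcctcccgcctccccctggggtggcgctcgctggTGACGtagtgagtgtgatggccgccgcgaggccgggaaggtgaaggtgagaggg
OMA1: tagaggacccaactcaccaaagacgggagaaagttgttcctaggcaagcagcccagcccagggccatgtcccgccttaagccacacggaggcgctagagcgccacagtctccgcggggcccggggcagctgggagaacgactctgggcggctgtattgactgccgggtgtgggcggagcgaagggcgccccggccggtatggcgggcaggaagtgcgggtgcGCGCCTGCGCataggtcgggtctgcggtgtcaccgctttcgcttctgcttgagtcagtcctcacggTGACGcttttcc
MFN1 held 1 match to CCAAT, 2 to CCGGAA and 1 to TGACG, MFN2 held 2 to TGACG, and OMA1 held 1 to the NRF1 motif and 1 to TGACG, with no overlap between them. Over 35116 promoter windows of the same length, CCAAT was present in 34.6%, CCGGAA in 17.2%, TGACG in 24.6% and the NRF1 motif in 5.78%. The MFN1 window had 57.0% GC and 10 CpG, against 71.3% and 37 CpG in MFN2, 66.0% and 27 CpG in OMA1, and a median of 58.7% and 14 CpG over all windows. Other motifs searched on both strands were GGGCGG, in 1 match for MFN1 and 2 for OMA1, and TGACNNNGC, in 1 match for OMA1. CACGTG, TGACGTCA, which contains TGACG, TGATGNAA, AAGATGGC and TATAAA were not in these 3 windows. Other genes of the 10, not called with all libraries, shared the marked motifs in their searched windows. CCAAT was also in DNM1L, MIEF1 and OPA1, CCGGAA in FIS1 and MIEF1, and TGACG and the NRF1 motif in OPA1. GGGCGG was also in DNM1L, FIS1, MIEF1 and OPA1. A match describes letters and is not evidence of binding.

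OPA1 (ENSG00000198836.11, chromosome 3, 193593144 to 193697811), which joins inner membranes and shapes cristae, was at 73.7, 98.9 and 136 CPM in BP+Huaier, against 148, 156 and 139 CPM in BP. The groups did not overlap, though BP+Huaier 3 lay just below the lowest BP value. The log2 fold change was -0.52 ± 0.21 (SE), which missed the threshold (edgeR adjusted p = 0.088), with a 95% interval of -0.995 to -0.050. OPA1 was called lower without BP+Huaier 3, by 1.70-fold (edgeR adjusted p = 1.1e-04), and also by limma-voom with a separate spread for each group (adjusted p = 0.029) and by edgeR with no filter on low counts (adjusted p = 0.028). Of all genes, 59.8%, 30.5% and 18.7% were called in these fits. The counts sum over its splice forms, of which GENCODE release 29 lists 33 transcripts, and do not show the long and short proteins.

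Of the proteases that cut OPA1, OMA1 (ENSG00000162600.12, chromosome 1, 58415384 to 58546802), which is activated by loss of membrane potential and stress, was at 6.43, 5.32 and 8.70 CPM in BP+Huaier, against 15.05, 12.6 and 11.9 CPM in BP. These rest on 92, 72 and 151 counts in BP+Huaier and 274, 236 and 201 counts in BP. The groups did not overlap, and the means were 6.82 ± 1.72 CPM in BP+Huaier and 13.2 ± 1.67 CPM in BP. Their log2 difference was -0.94 ± 0.22 (SE; adjusted p = 0.013 by edgeR), the smallest adjusted p of the 10 genes. Without BP+Huaier 3 the fall was 2.22-fold (edgeR adjusted p = 8.4e-05), while the gene was no longer called without BP+Huaier 2 (0.057), BP 1 (0.068) or BP 2 (0.052). Of all genes, 59.8%, 12.6%, 11.2% and 11.6% were called in these fits.

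YME1L1 (ENSG00000136758.19, chromosome 10, 27110111 to 27155266), the constitutive protease of the inner membrane, was at 157, 178 and 219 CPM in BP+Huaier, against 215, 224 and 193 CPM in BP. The groups overlapped, with BP+Huaier 3 among the BP values. YME1L1 had a log2 fold change of -0.19 with a 95% interval of -0.55 to 0.16 (edgeR adjusted p = 0.38), and without BP+Huaier 3 the gene was called lower, by 1.25-fold (edgeR adjusted p = 0.014). That fit called 59.8% of all genes, and no other fit with 1 library left out called YME1L1. Its exons overlap those of MASTL on the opposite strand over 443 bases, or 6.04%, and the sources do not say whether the counting used strand.

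The log2 ratio of OMA1 to YME1L1 per kilobase was -3.63, -4.08 and -3.67 in BP+Huaier, against -2.86, -3.18 and -3.04 in BP. Here BP+Huaier 3 lay with its group, and the groups did not overlap. The ratio was 1.71-fold lower (exact two-sided permutation test, p = 0.10, the smallest possible; 0.15 adjusted over 3 ratios).

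DNM1L (ENSG00000087470.19, chromosome 12, 32679200 to 32745650), the GTPase that constricts mitochondria, was at 66.8, 82.3 and 129 CPM in BP+Huaier, against 113, 122 and 105 CPM in BP. Within BP+Huaier it had the widest relative spread of the 10 genes, 34.98% of the mean against 7.58% in BP, with BP+Huaier 1 and 2 below and BP+Huaier 3 above every BP library. Its log2 fold change was -0.29 with a 95% interval of -0.80 to 0.22 (edgeR adjusted p = 0.35). Without BP+Huaier 3, DNM1L was called lower, by 1.51-fold (edgeR adjusted p = 5.5e-04). That fit called 59.8% of all genes, and no other fit with 1 library left out called DNM1L.

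None of the 4 outer-membrane adaptors of DNM1L was called by edgeR with all libraries, the smallest unadjusted p being 0.073 for MIEF1. MFF (ENSG00000168958.20, chromosome 2, 227325151 to 227357836), its main receptor in many cells, was at 52.3, 55.3 and 47.3 CPM in BP+Huaier, against 54.4, 56.7 and 52.3 CPM in BP. The groups overlapped, and the log2 fold change was -0.08 with a 95% interval of -0.37 to 0.22 (edgeR adjusted p = 0.67). MFF was the gene that was called in neither direction with all libraries and without BP+Huaier 3 (log2 fold change -0.01), and its value turned to 0.14 once a trend on GC content and on length had been removed.

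MIEF1 (ENSG00000100335.15, chromosome 22, 39499432 to 39518132), a receptor that holds DNM1L at the outer membrane, was at 81.4, 80.9 and 82.6 CPM in BP+Huaier, against 69.9, 69.9 and 67.3 CPM in BP. The groups did not overlap, and the spread within BP+Huaier was 1.10% of the mean, the narrowest of the 10 genes. The log2 fold change was 0.24 with a 95% interval of -0.03 to 0.51 (edgeR adjusted p = 0.15), and -0.019 when library size alone set the scale. MIEF1 was called higher without BP+Huaier 3 (edgeR adjusted p = 0.045) and after removal of the GC and length trend (0.039), but not when a replicate block was added to that trend-removed fit (0.091). Of all genes, 59.8%, 39% and 34.8% were called in these fits.

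MIEF2 (ENSG00000177427.13, chromosome 17, 18260597 to 18266552), the paralog of MIEF1, was at 39.8, 28.4 and 20.9 CPM in BP+Huaier, against 24.2, 21.2 and 25.7 CPM in BP. BP+Huaier 1 and 2 lay above and BP+Huaier 3 below every BP library, and the log2 fold change was 0.32 with a 95% interval of -0.19 to 0.83 (edgeR adjusted p = 0.30). The estimate was 0.54 without BP+Huaier 3, where the gene was called higher (edgeR adjusted p = 0.0066), and -0.00037 after removal of the GC and length trend. The fit without BP+Huaier 3 called 59.8% of all genes, and no other fit with 1 library left out called MIEF2. The log2 ratio of MIEF1 to MIEF2 per kilobase averaged 0.56 ± 0.48 in BP+Huaier and 0.59 ± 0.17 in BP, and the groups overlapped (exact two-sided permutation test, p = 0.90).

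FIS1 (ENSG00000214253.9, chromosome 7, 101239458 to 101252316), a small tail-anchored protein of the outer membrane that is the fission receptor of yeast and has a lesser part in human cells, was at 76.5, 55.5 and 44.0 CPM in BP+Huaier, against 42.6, 40.3 and 49.8 CPM in BP. BP+Huaier 1 and 2 lay above every BP library and BP+Huaier 3 among them. FIS1 had a log2 fold change of 0.41 with a 95% interval of -0.06 to 0.87 (edgeR adjusted p = 0.16), and without BP+Huaier 3 FIS1 was called higher, by 1.51-fold (edgeR adjusted p = 0.0024). That fit called 59.8% of all genes, and no other fit with 1 library left out called FIS1.

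**Figure D2:**
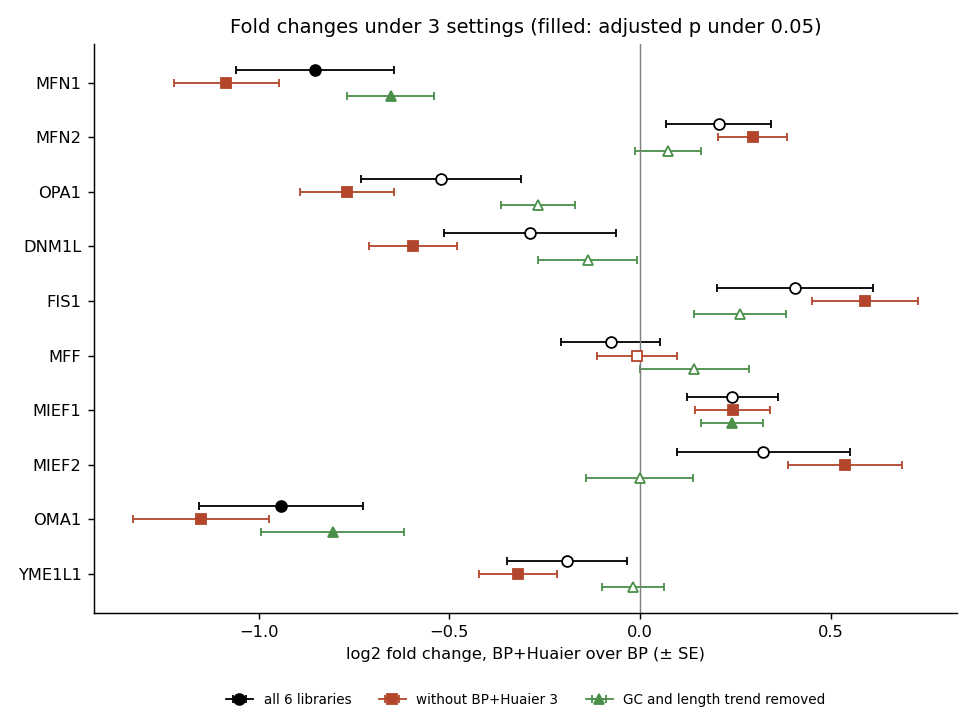
Log2 fold change of BP+Huaier over BP with its SE for each gene, with all 6 libraries, without BP+Huaier 3 and after removal of a GC and length trend; filled points have an adjusted p under 0.05. MFN1 and OMA1 lie left of 0 and are filled in all 3 settings, and without BP+Huaier 3 every gene but MFF is filled.

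The number of the 10 genes called changed with the libraries used, as did the share of all tested genes called. Of the 10 it was 0 without BP+Huaier 2, BP 1 or BP 2, 1 without BP 3 and 2 without BP+Huaier 1 (edgeR). Of all tested genes, 12.6%, 11.2%, 11.6%, 13.4% and 23.2% were called in these fits, in the same order. Without BP+Huaier 3, MFN2, FIS1, MIEF1 and MIEF2 were called higher and MFN1, OPA1, DNM1L, OMA1 and YME1L1 lower, 9 of 10 genes. In that fit 59.8% of all 15448 tested genes were called, 28.8% higher and 31% lower. With all libraries, 4 of the 10 genes had no overlap between the groups, 3 lower and 1 higher, against 46.8% of all tested genes, of which 24.9% were lower and 21.9% higher. In 8 of the 10 genes BP+Huaier 3 was the library of its group nearest to the BP mean, and in 7 BP+Huaier 1 was the farthest. Leaving out BP+Huaier 3 therefore widens the difference in these 8 genes, so that fit is not independent support for a change. The spread relative to the mean was larger in BP+Huaier than in BP for 9 genes, MIEF1 being the exception.

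With TMM scaling, the sign of the estimates of the 10 genes, 8 of them not called, split by the GC content of their transcripts. MFF, OPA1, MFN1, YME1L1, DNM1L and OMA1 have 37.4%, 38.4%, 39.9%, 40.6%, 41.0% and 43.5% GC in the longest transcript, and all 6 had a log2 fold change below 0. MIEF1, MFN2, FIS1 and MIEF2 have 49.99%, 53.6%, 57.4% and 59.0% GC, and all 4 had one above 0. With library size alone as the scale, MFN2 and MIEF1 were below 0 (-0.066 and -0.019). Across these 10 genes, which share the libraries and differ in length and level, the correlation of GC content with the log2 ratio to the BP mean was r = 0.84, 0.64 and 0.23 in BP+Huaier 1, 2 and 3, and at -0.06, -0.88 and 0.87 in BP 1, 2 and 3. Each BP library is part of the BP mean, so the BP correlations are tied to each other and are not independent. The deviations in BP were small, from -0.16 to 0.19, while in BP+Huaier 1 they ran from -1.31 to 0.79.

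**Figure D3:**
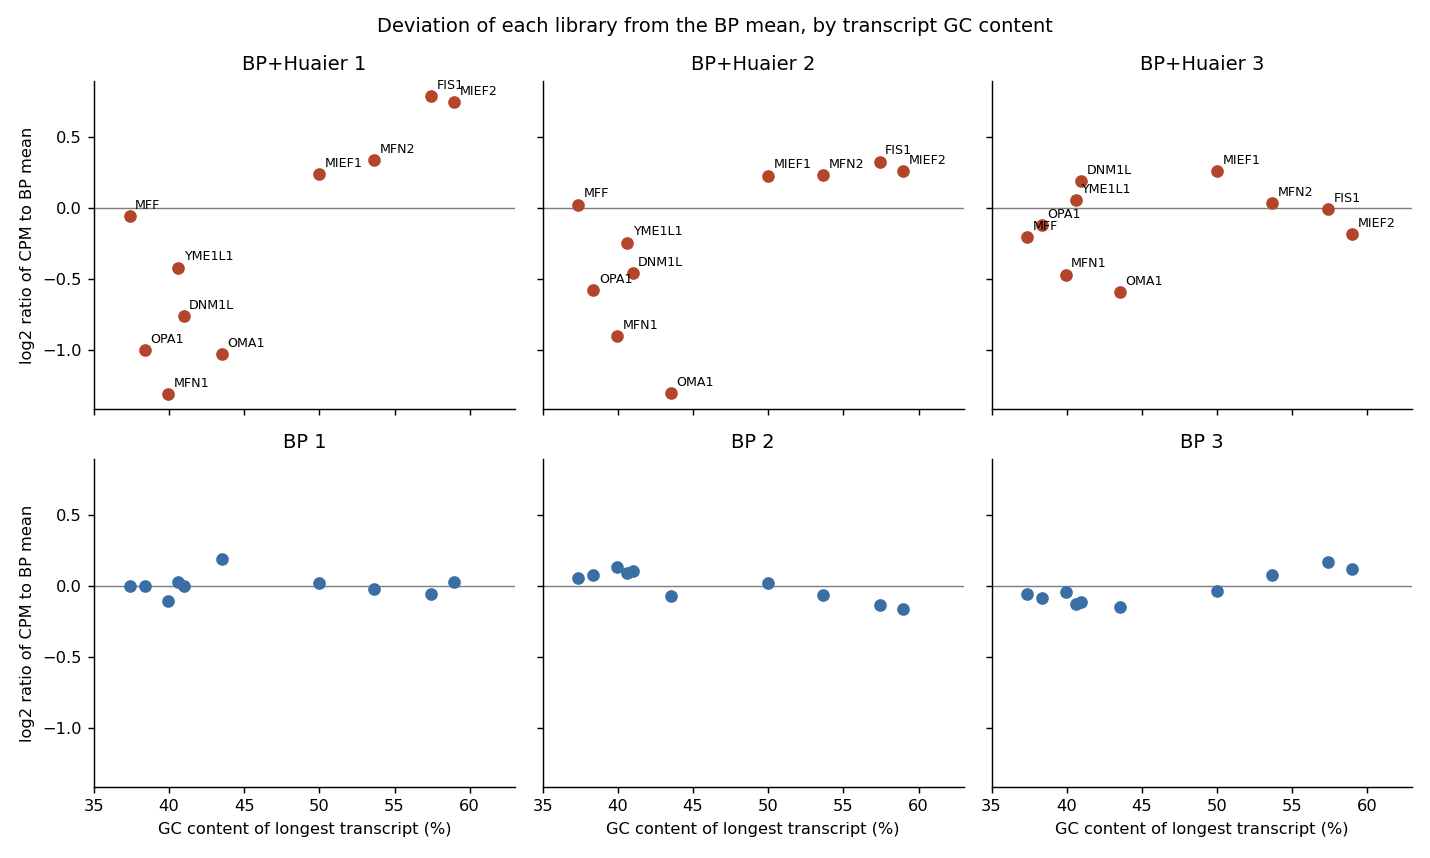
Log2 ratio of each gene's CPM to the BP mean in each library, with BP+Huaier libraries above and BP libraries below, against the GC content of the longest transcript in percent. In BP+Huaier 1 and 2 the genes with the lowest ratios have under 45% GC and the 4 genes above 45% GC lie above 0, while BP libraries stay between -0.16 and 0.19.

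Across all genes the shift went the same way but was partial. The correlation of GC content with the log2 ratio to the BP mean was 0.39, 0.27 and 0.03 in BP+Huaier 1, 2 and 3. In BP 1, 2 and 3, which are part of that mean and so are tied to each other, it was 0.03, -0.44 and 0.42. Of 5146 tested genes under 45% GC, 19.0% were called lower and 5.29% higher, and of 9750 genes at 45% or more, 12.6% were called lower and 19.3% higher (edgeR adjusted p under 0.05). Of the 6 fusion and fission genes under 45% GC, 2 were called lower. With the trend on GC content and on length taken out of each library, 39% of all genes were called, 19.4% higher and 19.6% lower. MFN1 was then still lower, at -0.65 ± 0.11 on the log2 scale (SE; adjusted p = 0.0023 by edgeR), and so was OMA1, at -0.81 ± 0.19 (SE; adjusted p = 0.0088 by edgeR). OPA1 was then at -0.27 (edgeR adjusted p = 0.053), DNM1L at -0.14 (0.43), YME1L1 at -0.02 (0.87), MFN2 at 0.07 (0.52) and FIS1 at 0.26 (0.11).

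Levels can be compared between genes only per length, here as RPKM, the CPM divided by kilobases of merged exons, which reads too low for genes with many rarely used exons. In BP+Huaier the order of RPKM levels was FIS1 (32.7 ± 9.21), MFN2 (25.7 ± 2.68), YME1L1 (25.2 ± 4.25), DNM1L (12.7 ± 4.45), OPA1 (11.4 ± 3.48), MIEF1 (10.8 ± 0.12), MFF (8.39 ± 0.66), MIEF2 (7.61 ± 2.44), MFN1 (5.20 ± 1.51) and OMA1 (1.83 ± 0.46). In BP it was YME1L1 (28.7 ± 2.23), FIS1 (24.7 ± 2.77), MFN2 (22.3 ± 1.14), OPA1 (16.4 ± 0.93), DNM1L (15.6 ± 1.18), MFN1 (9.40 ± 0.83), MIEF1 (9.14 ± 0.20), MFF (8.85 ± 0.36), MIEF2 (6.07 ± 0.59) and OMA1 (3.54 ± 0.45). In both groups the top 3 were FIS1, MFN2 and YME1L1, whose ranges overlapped between neighbours, and OMA1 was the lowest, with a range apart from the gene above it. MFN1 stood level with MIEF1 and MFF in BP, where neighbouring ranges overlapped, and next to last in BP+Huaier, where its range overlapped that of MIEF2.

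Of 40 further genes of mitochondrial dynamics, listed by function, all were tested, and 6 rose, 3 fell and 31 did not pass (edgeR adjusted p under 0.05). These are 22.5% of the list, against 29.3% of all tested genes. The list's median log2 fold change was 0.19, against -0.02 over all genes, and it was -0.085 when library size alone set the scale, which moved the median of all genes to -0.28. Among 15 regulators of fission 4 rose and 1 fell, among 7 partners of fusion and of mitochondrial lipids 1 rose and 1 fell, and among 7 cristae genes 1 rose. Of 4 transport genes 1 fell. The shares called in these roles were 33.3%, 28.6%, 14.3% and 25%, in the order given. Of all tested genes 14.4% were called higher and 15% lower. The 5 inner-membrane proteases and prohibitins had log2 fold changes from 0.0057 in SPG7 to 0.41 in PHB1, and DELE1 and EIF2AK1, which relay OMA1 activity to the integrated stress response, were at 0.24 and 0.11. These 7 did not pass, the smallest unadjusted p being 0.065 for PHB1 (edgeR). Without BP+Huaier 3, 19 of the 40 were called higher and 4 lower, in a fit where 28.8% of all genes were called higher and 31% lower.

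PLD6, a phospholipase of the outer membrane that promotes mitofusin-dependent fusion, was at 35.4, 53.7 and 27.8 CPM in BP+Huaier, against 10.4, 11.3 and 11.04 CPM in BP, a 3.55-fold rise (edgeR adjusted p = 0.0018). All BP+Huaier libraries lay above all BP libraries. Of its exon bases 6.83% overlap MPRIP on the opposite strand and 17.5% an unnamed gene on the same strand. MTFR2, a promoter of mitochondrial division, rose 1.79-fold, from libraries at 15.6, 19.4 and 15.7 CPM in BP+Huaier against 11.5, 8.94 and 7.91 CPM in BP (edgeR adjusted p = 0.013).

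INF2, a formin that assembles actin at sites of division, rose 1.71-fold, with 568, 518 and 350 CPM in BP+Huaier against 271, 271 and 298 CPM in BP (edgeR adjusted p = 0.017). CHCHD6, a subunit of the cristae complex MICOS, rose 1.59-fold, with 68.7, 55.9 and 39.0 CPM in BP+Huaier against 34.9, 30.0 and 37.6 CPM in BP (edgeR adjusted p = 0.039). In both, BP+Huaier 3 was the library of its group nearest to BP. Under edgeR, INF2 was no longer called without BP+Huaier 2 (adjusted p = 0.071) or without BP 1, 2 or 3 (0.079, 0.084 and 0.060), nor MTFR2 without BP+Huaier 2 (0.056), BP 2 (0.068) or BP 3 (0.057), nor when library size alone set the scale (0.069). CHCHD6 was called only with all libraries or without BP+Huaier 3 among the fits that leave out at most 1 library, its other adjusted p lying between 0.085 and 0.15 (edgeR). CHCHD6 was also not called with library size as the scale (0.12), among genes of at least 5 CPM (0.065) or with a replicate block (0.070).

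TRAK2, an adaptor that couples mitochondria to microtubule motors, fell 3.37-fold, with 8.31, 5.84 and 15.2 CPM in BP+Huaier against 36.3, 32.1 and 31.1 CPM in BP (edgeR adjusted p = 0.0045). SLC25A46, an outer-membrane protein that regulates fission and fusion, fell 1.84-fold, with 24.4, 28.4 and 26.4 CPM in BP+Huaier against 46.6, 52.5 and 46.6 CPM in BP (edgeR adjusted p = 0.0031), and here BP+Huaier 3 lay between the other libraries of its group. MIGA1, which supports mitofusin-dependent fusion, fell 1.77-fold, with 9.92, 12.4 and 20.4 CPM in BP+Huaier against 23.95, 27.6 and 24.4 CPM in BP (edgeR adjusted p = 0.036). These genes have 42.0%, 32.1% and 36.2% GC in the longest transcript, and all 3 were also lower after removal of the GC and length trend (edgeR adjusted p = 6.9e-04, 0.011 and 0.0082). PLD6, TRAK2 and SLC25A46 were called in all 18 other settings tried. MIGA1 was called with all libraries and without BP+Huaier 3, and its adjusted p lay between 0.071 and 0.14 with any other library left out (edgeR).

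**Figure D4:**
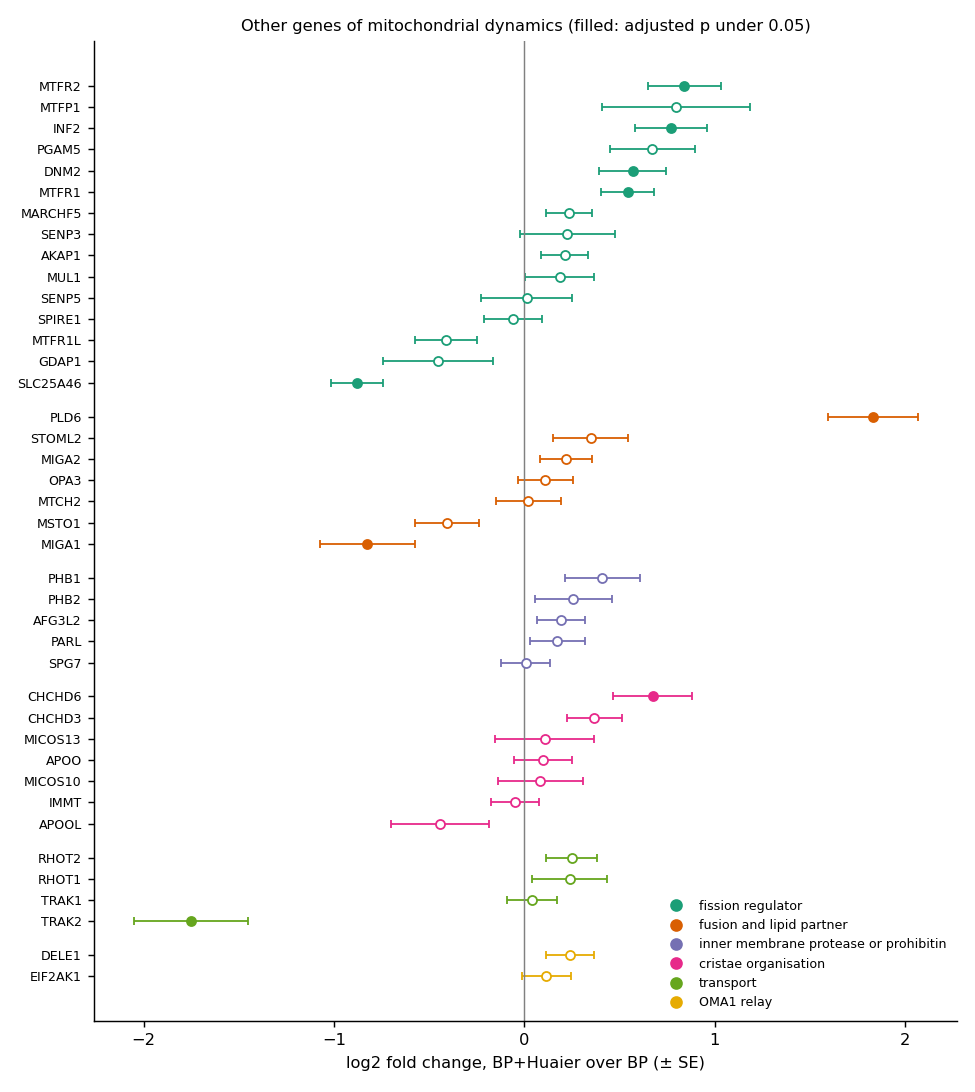
Log2 fold change of BP+Huaier over BP with its SE for 40 further genes of mitochondrial dynamics, grouped and coloured by role; filled points have an adjusted p under 0.05. PLD6 lies farthest to the right at 1.83 and TRAK2 farthest to the left at -1.75, and 31 of the 40 points are open.

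The protein-coding genes whose log2 CPM ran closest to OMA1 over the 6 libraries were ZSCAN32, TGFBRAP1 and C5orf34, with Pearson r = 0.99 for each. Such likeness is common where the groups differ widely, since 1130 of 10126 genes of at least 5 CPM had r over 0.9 with OMA1.

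Whether reads were shared with other genes was not tested. Apart from the overlap of YME1L1 with MASTL, exons of the 10 genes overlap those of other genes by at most 8.24% (MFF with MFF-DT), and those genes had at most 17 counts in a library. The 5 pseudogene copies named after MFN1, MFF or YME1L1 had at most 2 counts.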

How the data were processed

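The authors deposited raw counts of read pairs for each gene, made with fastp 0.20.0, HISAT2 2.1.0 and featureCounts 1.6.1 on GRCh38, per the submitters' processing notes. Reads were Illumina pairs from NEBNext libraries, per the labels' protocols. The sources used here name no annotation release and no strand or multi-mapping setting. Gene lengths are merged exon bases, per the file headers.

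The gene whose lines were broken, with at most 147 counts, and 44 pseudoautosomal copies at 0 counts were left out, which left 60604 genes. Symbols matched 99.77% of IDs, and biotypes and GC content came from GENCODE release 29. edgeR 4.0.16 in R 4.3.3 was run on 15022 genes passing filterByExpr, with TMM, group as the only term and the robust quasi-likelihood test, which gave a common biological variation of 18.1%. The TMM factors were 0.850, 0.857 and 1.04 in BP+Huaier 1, 2 and 3, and 1.10, 1.11 and 1.08 in BP 1, 2 and 3. SE is implied by the test. Within-library ratios used an exact permutation test. At these depths 3 counts are 0.160 to 0.222 CPM. Pairs of libraries within a group varied by 16.0 to 69.6 times the counting variance in BP+Huaier and 3.43 to 8.82 times in BP.

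The 10 genes, the list of 40 and the markers were chosen with earlier results of these data known. All 10 genes are described. Of the 40, up to 4 called in each direction with the largest change and at least 1 CPM were named. As genes most like one of the 10, the 3 of at least 5 CPM with the highest correlation with OMA1, which had the smallest adjusted p, were named. The spline trend had 5 degrees of freedom each for GC content and log length and was centred in each library. DESeq2 1.42.0 and limma 3.58.1 served as alternatives. Promoter windows of 7 genes are from RefSeq on GRCh38.p14. MFF, MIEF2 and YME1L1 were not searched. The steps were tested on simulated counts. There edgeR called 57% of planted 2-fold and 92% of planted 4-fold changes, and 6.875% of its calls were false. A gene that did not pass may therefore still have changed. Plots were made in Python 3.11.15 (matplotlib 3.10.9).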

Additional observations from a re-analysis of the deposited data

How the results depend on the processing

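MFN1 and OMA1 stayed below 0 in all 18 other settings, with log2 fold changes of -1.09 to -0.65 and -1.18 to -0.78, and their adjusted p reached 0.080 and 0.068. Fusion and fission genes called lower numbered 2 with all libraries, 0 at an adjusted p under 0.01 and 0 to 5 with 1 library left out. Those called higher numbered 0, then 1 after removal of the GC and length trend and 0 to 4 with 1 library left out. Of all tested genes, 15%, 5.39% and 5.92% to 31% were called lower in the settings given for lower. In those given for higher, 14.4%, 19.4% and 5.27% to 28.8% of all tested genes were called higher. With scaling by library size alone the log2 fold change was -0.066 for MFN2 and -0.019 for MIEF1. Removal of the trend gave 0.14 for MFF and -0.00037 for MIEF2, and 0.13 and -0.015 with the replicate block. Leaving out 1 library moved the MIEF1 to MIEF2 log2 ratio, -0.04 with all, between -0.28 and 0.20. Of 180 settings of single genes, 155 kept direction and call, which for the 8 genes not called with all libraries means staying uncalled. The setting at an adjusted p under 0.01 used the same fit, so no sign could change there. This count is therefore not a measure of stability. Direction and call were kept in 119 of 162 settings of the called genes among the 40, and none of these changed sign.

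Of all genes, 2160 were higher and 2246 lower. With 1 library left out these were 810 to 4452 and 909 to 4793. With library size as the scale 1051 were higher and 2959 lower, with the replicate block 1357 were higher, and 826 higher and 810 lower remained at an adjusted p under 0.01. At least 5 CPM gave 1363 lower. Of the 40 further genes, 6 were higher and 3 lower, and 1 to 19 and 2 to 4 with 1 library left out. Of all tested genes these were 14.4% and 15%, and 5.27% to 28.8% and 5.92% to 31%. Higher ones of the 40 numbered 2 with scaling by library size alone, 3 with the replicate block and 1 at an adjusted p under 0.01. The shares of all genes were 7%, 9.03% and 5.5%. Lower ones of the 40 numbered 5 with scaling by library size alone, with at least 5 CPM, and with the trend removed, also together with the block. There the shares of all genes were 19.7%, 12.9%, 19.6% and 17.9%. The cause was not tested.

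Libraries with the same replicate number did not deviate alike. Their deviations from the group means correlated at 0.01, -0.06 and -0.28 over 15022 genes, and those with different numbers at -0.26 to 0.26. With 3 libraries in a group these values are tied to each other, so they cannot decide whether libraries were paired. The replicate block alone changed no call of the 10 genes. Together with removal of the trend it ended the call of MIEF1 (edgeR adjusted p = 0.091, against 0.039 without the block). The 10 genes had 72 to 4216 counts in a library. The sign of MFN2, MFF, MIEF1 and MIEF2 turned with the setting, and OPA1 protein forms, DNM1L phosphorylation and the state of the network were not measured.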
